A study of Mus musculus with 2 samples.

Results

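ISL1 peaks were examined at 10 genes of calcium handling in the pacemaker of the mouse heart: Cacnb2, Itpr1, Itpr2, Ryr2, Casq2, Atp2a2, Pln, Slc8a1, Camk2d and Ank2. A peak counted for a gene when the authors' annotation named that gene as the one with the nearest transcription start site (TSS), at any distance. By this rule 8 of the 1483 peaks belonged to the genes, and 6 of the 10 genes had at least 1. Of all 26220 genes with a curated transcript, coding or noncoding, 3.82% were nearest to a peak. The genes were chosen by earlier results of this same list (which genes had peaks, and the scores and distances of those peaks). Their counts and scores are therefore a description, no test was made on them, and nothing is read from the contrast with all genes.

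The series held 2 libraries, 1 of chromatin precipitated with an antibody to ISL1 and 1 of input DNA. Both came from sinoatrial node (SAN) cells of Hcn4-H2BGFP mice on the ICR background at postnatal day 1 to 3. The reporter places green fluorescent protein on the chromatin of cells that use Hcn4, a pacemaker channel gene, and the sort kept cells by that signal. Each library stands alone, so there is no replicate error for any value below, and nothing says how many hearts were pooled. The list reports binding and not expression. Whether the sorted cells make the RNA of any gene described here, or of the markers of the SAN, was not measured in it.

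The pacemaker fires through surface ion channels working together with a cycle of calcium inside the cell. Calcium leaves the sarcoplasmic reticulum (SR) through release channels, the sodium-calcium exchanger carries it out of the cell with an inward current, and a pump refills the store. Kinases that sense calcium set the pace of this cycle, and ankyrin-B holds the exchanger at its place in the membrane. ISL1 is a LIM-homeodomain transcription factor needed for the SAN to form and to work.

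The peaks of the calcium genes were of ordinary height and, like most peaks of the list, lay away from promoters. Their scores ran from 9.58 to 21.9 with a median of 13.7, beside a median of 15.1 and quartiles of 12.3 and 17.8 for all 1483 peaks. The score is the authors' number for each peak and ranks peaks within this list only. Every score in the list was a multiple of 1.37, here called a step, and if 1 step stands for 1 sequenced tag, the 8 peaks rest on 7 to 16 tags. The exact Poisson 95% interval of each of the 8, which covers counting error only, held the median of all peaks. The 8 intervals therefore overlap, differences between pairs were not tested, and no order among the 8 is read from them. The intervals take no account of the authors' threshold, below which peaks were not listed. Being wide, they held the median both for Itpr2, above 86.3% of the peaks, and for Pln, above 0.337%. Holding it therefore does not tell an ordinary peak from a high or low one. None of the 8 carried the authors' promoter annotation, which only 48 of all 1483 peaks had. Of the 8, 4 were intronic (40.8% of all peaks), 3 intergenic (53.8%) and 1 in a 3′ UTR (5 of all peaks). Upstream and downstream of the nearest TSS there were 4 each, beside 611 and 872 of all peaks.

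**Figure D1:**
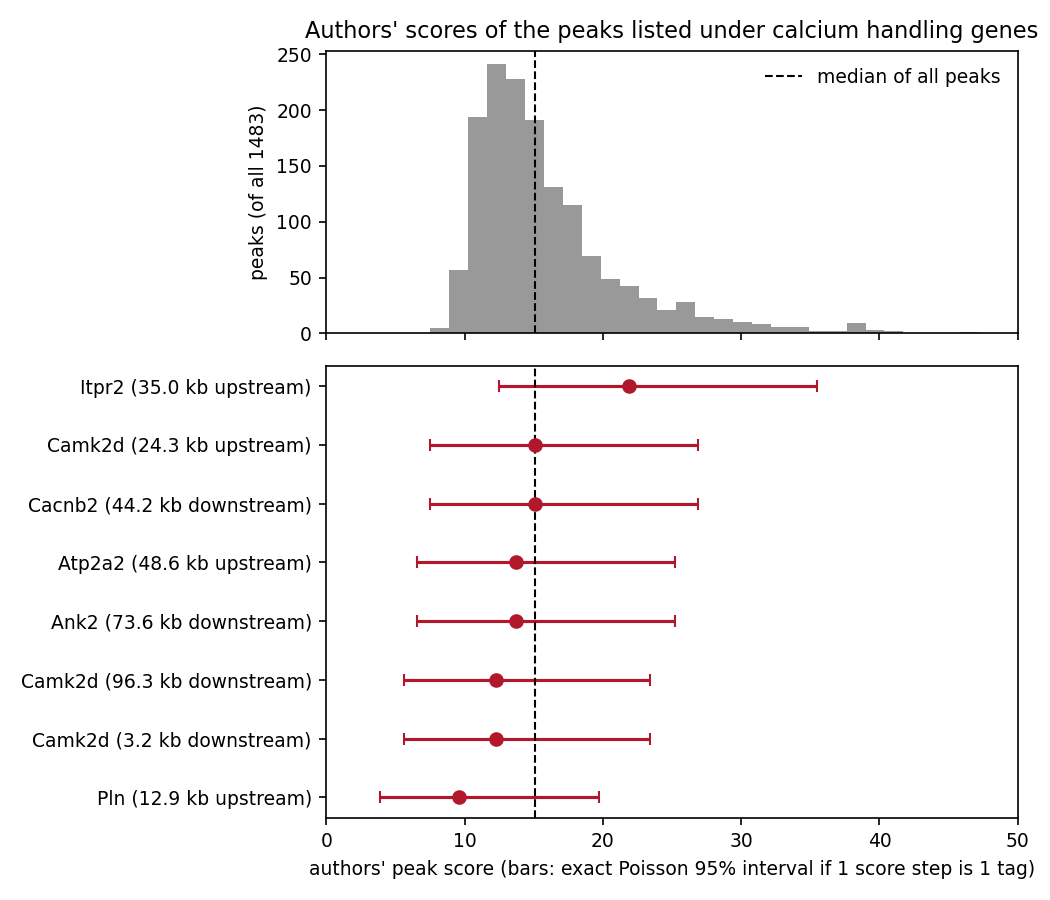
The upper panel counts all 1483 peaks by the authors' score, and the lower panel gives the score of each of the 8 peaks listed under calcium handling genes, with its distance from the TSS. Bars are exact Poisson 95% intervals on the assumption that 1 score step is 1 tag, the dashed line is the median of all peaks (15.1), and 3 peaks above 50 lie outside the axis; every bar crosses the dashed line.

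The highest peak of the group was that of Itpr2, which encodes the inositol trisphosphate receptor isoform that predominates in heart muscle cells. It was intergenic at chromosome 6 146485699 to 146485843 (all coordinates are mm9), 35.0 kb upstream of the Itpr2 TSS. Its score of 21.9, or 16 steps (9.15 to 26.0), exceeded 86.3% of the peaks in the list. It was the 1 peak of the 8 in the upper quartile of the list. No other peak lay within 1.74 Mb of it. None of the 3 protein-coding genes on either side of Itpr2 in the reference gene order was nearest to a peak, beside 3.82% of all genes.

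The other release channels had no listed peak. Ryr2 encodes the ryanodine receptor through which the SR of heart cells releases calcium, and Itpr1 another inositol trisphosphate receptor. Neither was the nearest gene of any peak, and no peak was annotated inside either gene. None of the 3 protein-coding neighbours on each side of Ryr2 or of Itpr1 was nearest to a peak. As only 3.82% of all genes were, neighbours without a peak are common, and nothing is read from them.

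Cacnb2, a subunit that brings L-type calcium channels to the surface membrane, held its peak inside the gene. The peak lay at chromosome 2 14839375 to 14839519 in intron 2 of 12 of the transcript NM_001252533, 44.2 kb downstream of the nearest annotated start, that of NR_045533. Its score was 15.1 (11 steps, 5.49 to 19.7), equal to the median of the list. The next peak on the chromosome was 1.34 Mb away, at Vim.

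The genes of SR refilling had peaks in transcripts of other genes rather than in their own. Atp2a2 encodes the pump that returns calcium to the SR. Its peak, at chromosome 5 123000766 to 123000910, lay 48.6 kb upstream of the Atp2a2 TSS. There it fell in the 3′ UTR of Ift81 (NM_009879, exon 19 of 19), an intraflagellar transport gene of cilia. The score was 13.7 (10 steps, 4.80 to 18.4). The closest other peak was 2.59 Mb away and was listed under Tbx5, a T-box gene of the heart.

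Pln encodes phospholamban, the small membrane protein that holds the pump back until it is phosphorylated. Its peak, at chromosome 10 53044483 to 53044627, lay 12.9 kb upstream of the Pln TSS in intron 3 of 12 of Cep85l (NM_001204983). Cep85l is the coding gene next to Pln in the reference order, which goes by start position and does not show whether genes overlap. The score of 9.58, or 7 steps (2.81 to 14.4), was the lowest of the group. Of the whole list 5 peaks were lower, and 62, this peak included, were at that score or lower. The list goes no lower than 8.21, which is 6 steps, so this peak stands just above the weakest signal that the authors kept. On the score scale its interval ran from 3.85 to 19.7 and overlapped that of Itpr2, 12.5 to 35.5.

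Casq2, the calcium-binding protein of the SR store, and Slc8a1, the sodium-calcium exchanger, had no listed peak. None of the 3 protein-coding neighbours on either side of Slc8a1 was nearest to a peak. Among those of Casq2, 2 were, the only 2 of the 24 such neighbours of the 4 genes without a peak, beside 3.82% of all genes. Vangl1, the next gene in the reference order, had a peak of score 19.2 in intron 4 of the transcript NM_001165951 (chromosome 3 101973330 to 101973474), and Mab21l3 had 1 of 10.9. Their distance from Casq2 was not measured, because no gene coordinates of the build mm9 were at hand for genes without a peak. For these 4 genes the list shows only that no peak passed the authors' threshold and had them as the nearest gene. Weaker binding, or binding at an element nearer to another gene's TSS, is not covered by it.

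Camk2d was the gene of the group with several peaks. It encodes the delta isoform of calmodulin-dependent kinase II, the main isoform in heart muscle, which phosphorylates release channels and phospholamban. The first peak lay 24.3 kb upstream of the TSS in intergenic sequence (chromosome 3 126275474 to 126275618) with a score of 15.1. The second lay 3.25 kb downstream in intron 2 of 17 (126303045 to 126303189), and the third 96.3 kb downstream in intron 3 of 17 (126396126 to 126396270). Both of these had a score of 12.3 (9 steps, 4.12 to 17.1). The 3 distances point to a single TSS at 126299869. The intronic peak at 3.25 kb was the only 1 of the 8 within 10 kb of a TSS.

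The upstream Camk2d peak was annotated on a repeat, an LTR element of the MaLR family named MTD. It was the 1 such peak of the 8, and 116 peaks of the list were on repeats (7.82%). Its focus ratio, the authors' measure of how tightly the tags of a peak gather, was 0.917, higher than that of 96.1% of all peaks. The focus ratios of the 8 peaks ran from 0.688, at Ank2, to 0.917, with a median of 0.800 against 0.739 for all peaks. How reads that match several repeat copies were treated is not given in the sources used here, and its part in this peak was not tested.

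Ank2 encodes ankyrin-B, whose loss in people causes sinus node dysfunction and other arrhythmias. Its peak lay at chromosome 3 126572673 to 126572817 with a score of 13.7 (10 steps, 4.80 to 18.4). By the authors' annotation it was intergenic, outside every annotated transcript. The nearest annotated start, that of the Ank2 transcript NM_001034168, was 73.6 kb away. The peak was downstream of that start, and so past the 3′ end of that transcript. No peak of the list was annotated inside Ank2.

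Camk2d and Ank2 are the closest protein-coding neighbours of each other on that side, and their 4 peaks formed 1 stretch. The reference places Camk2d on the plus strand and Ank2 on the minus strand, so the genes are transcribed towards each other. With those strands, the deposited distances put the NM_001034168 start, the one nearest to the Ank2 peak, at 126646304. That start was 346.4 kb from the Camk2d TSS. Seen from the Camk2d TSS, the Ank2 peak was at 272.9 kb, on the far side of the third Camk2d peak by 176.5 kb. Within the stretch the other gaps were 27.6 and 93.1 kb. Outside it there was no peak for 1.06 Mb on the Ndst4 side and 1.00 Mb on the other, where the next peak lay in Fam241a (listed as 5730508B09Rik).

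**Figure D2:**
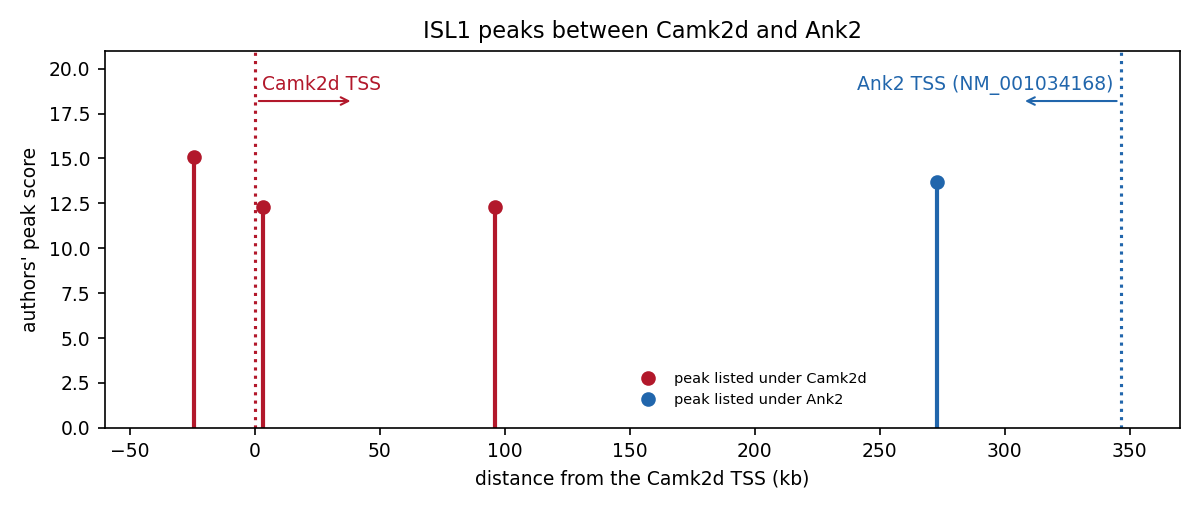
The horizontal axis is the distance from the Camk2d TSS in kb, and each stem is 1 peak with its authors' score on the vertical axis, red for Camk2d and blue for Ank2. Dotted lines mark the starts of Camk2d and of the Ank2 transcript NM_001034168, with arrows in the direction of transcription; the 3 Camk2d peaks lie from 24.3 kb before to 96.3 kb after that gene's start, and the Ank2 peak stands 176.5 kb beyond them.

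Groups of this size were common in the list. With a window of 300 kb, set knowing that the Camk2d and Ank2 peaks span 297.3 kb, 53 separate stretches held 4 peaks or more, and 28 of them held exactly 4. The stretches with the most peaks were led by Unc5c (10), Tfec (7) and Atp5j (7). The median score in the Camk2d and Ank2 stretch was 13.0, and 42 of the 52 others had a higher median. Those led by Runx1t1 and Triqk had the same median of 13.0.

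Having 3 peaks placed Camk2d among 95 genes with 3 or more, and 46 genes had exactly 3. For 10 of these 46, Camk2d included, all 3 peaks were within 100 kb of the TSS. Likeness to Camk2d was measured by an equal number of peaks and the smallest difference in median score, over the 1 library. The 3 genes named by it, with ties in alphabetical order among 8 genes of the same median (12.3), were Cox10, Erbb4 and Gm2516. The placement of peaks varied among the 8. The peaks of Camk2d spanned 120.7 kb, those of Cox10 2.87 kb at 54.2 to 57.1 kb from its TSS, and those of Erbb4 895.6 kb at 211.8 kb or more. Mpped2 and Slc27a6, named after their values were seen, had spans close to that of Camk2d, 139.5 kb and 117.7 kb.

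All 8 peaks of the calcium genes were within 100 kb of a TSS, against 814 of the 1475 other peaks (55.2%). The genes were known to have peaks at such distances when they were picked, so the contrast comes with the choice. Against the 814 other peaks within 100 kb, whose median score was 13.7 and quartiles 12.3 and 17.8, the median of the 8 was the same. Of the 4 intronic peaks 3 were in the gene of the nearest TSS, against 72.1% of the 599 intronic peaks of the list with a matched host gene.

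**Figure D3:**
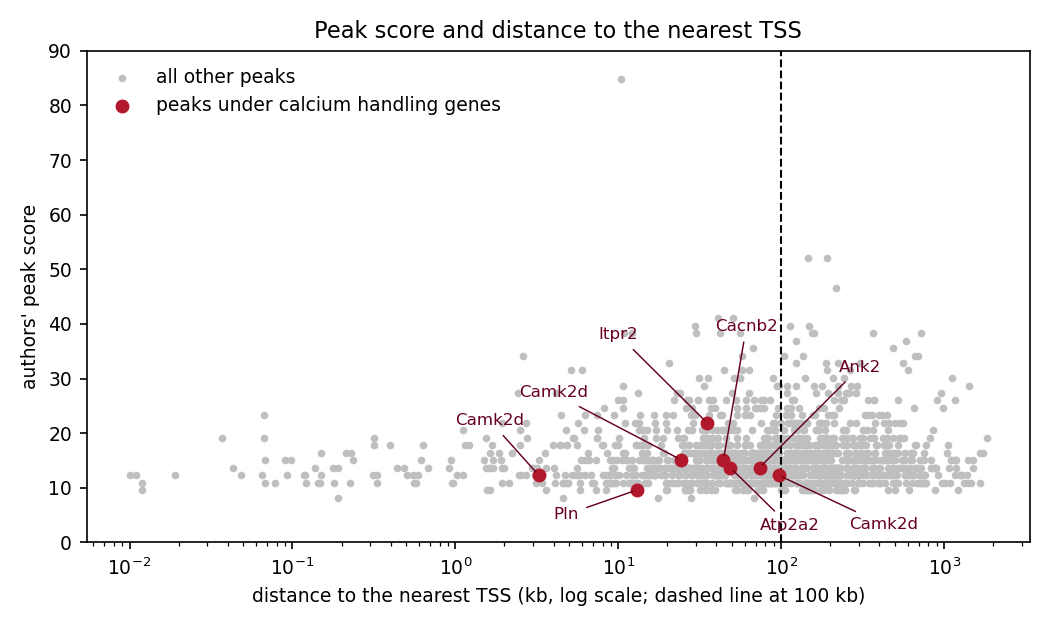
Each point is 1 peak, with its distance to the nearest TSS in kb on a log axis and the authors' score on the vertical axis; the 8 peaks of calcium handling genes are red and named, all others grey, and 1 peak closer than 10 bp is drawn at 10 bp. The red points lie left of the dashed line at 100 kb and inside the cloud of grey points.

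Single placement was the rule for the other genes of the group. Among the peaks of Itpr2, Cacnb2 and Atp2a2 none had another peak within 1 Mb, which held for 18.7% of all peaks. The Pln peak was 565.0 kb from the next, at Fam184a (score 13.7). Over the whole list the median distance to the next peak was 197.0 kb.

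For the other genes of the pathway, the share with a peak is set beside that of all genes. Besides the 3.82% of all genes nearest to a peak at any distance, 2.57% were nearest to a peak within 100 kb. The other genes of the pathway were taken from 8 lists by role that together held 93 genes, the 10 included. Of the 83 others, 4 were nearest to a peak (4.82%, exact Clopper-Pearson 95% interval 1.33 to 11.9, counting error only), close to the background of 3.82%. The lists were drawn up with earlier results of these data known. Gene length and spacing, which differ between genes, were not corrected for, and the background includes noncoding genes.

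Those 4 genes were Micu2, Rcan1, Atp2b1 and Camk1d, each with 1 intronic peak. Micu2, a gatekeeper of the mitochondrial calcium uniporter, had the highest score, 19.2, in intron 1 of 11 (chromosome 14 58594656 to 58594800). Rcan1, an inhibitor of the calcium-dependent phosphatase calcineurin, had a peak of 16.4 (chromosome 16 92428835 to 92428979). That peak was 28.6 kb upstream of the start of the transcript NM_019466 and in intron 1 of 3 of another, NM_001081549. Atp2b1, a calcium pump of the surface membrane, had 1 of 13.7 in intron 2 of 20, 57.0 kb from its TSS (chromosome 10 98434691 to 98434835). Camk1d, another calmodulin-dependent kinase, had 1 of 12.3 in intron 2 of 10 at 202.6 kb (chromosome 2 5394392 to 5394536).

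The counts by role stand beside 3.82% of all genes. They include the 10 genes, which were chosen with their peaks known, so roles are not ranked by them. By role, the list of SR uptake and storage had 2 of 8 genes with a peak, Atp2a2 and Pln, both among the 10. That of calmodulin, its kinases and calcineurin had 3 of 19, Camk2d, Rcan1 and Camk1d. The voltage-gated calcium channel subunits had 1 of 11, Cacnb2. Among the 10 subunit genes without a peak were Cacna1d and Cacna1g, which encode the pore subunits of the L-type and T-type channels of pacemaker cells. Ankyrins and spectrins had 1 of 9, Ank2. Surface membrane extrusion had 1 of 7, Atp2b1, and mitochondrial transport 1 of 10, Micu2. None of the 13 store-operated and TRP channel genes was nearest to a peak.

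**Figure D4:**
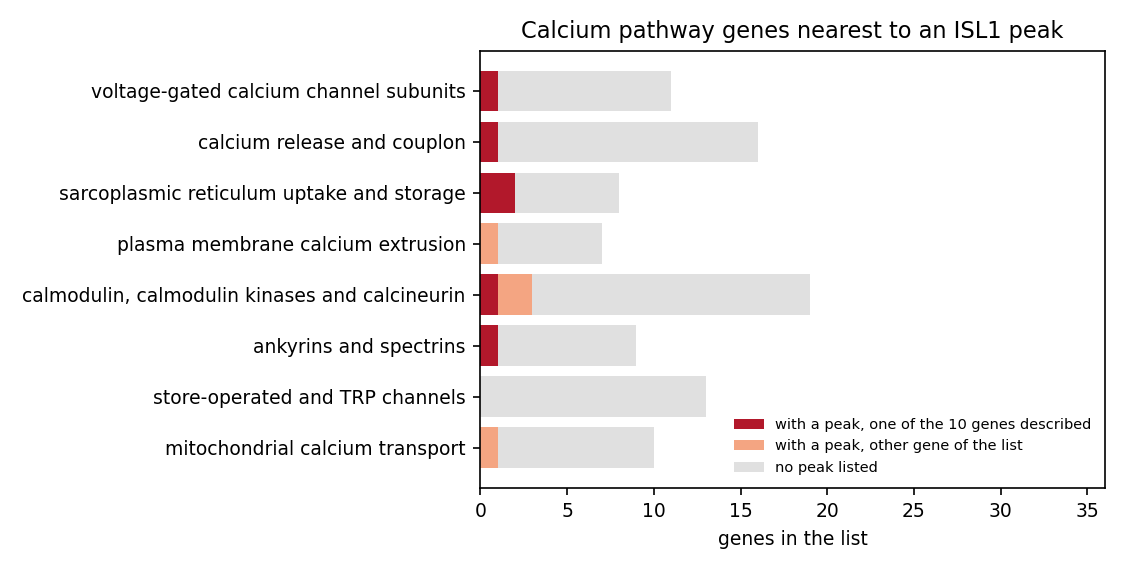
Each bar is a list of calcium pathway genes by role and its length is the number of genes in the list. Red marks genes nearest to a peak that are among the 10 genes described, which were chosen with their peaks known. Light red marks other genes nearest to a peak, and grey genes with no listed peak. SR uptake and storage has 2 red genes of 8, and store-operated and TRP channels have none of 13.

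Calcium release and the couplon, the junction of surface membrane and SR, had 1 of 16 genes, Itpr2, by nearest TSS. A second gene of that list, Trdn, held a peak inside its body. Trdn encodes triadin, which ties calsequestrin to the ryanodine receptor. The peak lay in intron 23 of 37 of Trdn (chromosome 10 33143617 to 33143761, score 12.3) and was listed under the noncoding D830005E20Rik at 167.5 kb. It was annotated on an LTR element of the ERVK family. With genes that hold a peak counted too, 5 of the 83 other pathway genes had one, and the background rose to 4.21% of genes.

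For comparison, 2 of 10 pacemaker marker genes were nearest to a peak, Tbx18 and Isl1, and 5 of 40 markers of other cell types of the heart, beside 3.82% of all genes. Within 100 kb there were 1 of 10, as both Isl1 peaks lay farther away, and 4 of 40, beside 2.57% of all genes. The 5 were Tcf21, Vim and Col1a2 of fibroblasts and epicardium and Ets1 and Emcn of endothelium. None of 10 working myocardium or 10 neuron and glia markers was. Peaks near markers of other cell types do not show which cells were in the sort, and their part in the values above was not tested.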

How the data were processed

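Per the labels' protocols, proteins were first crosslinked to each other (disuccinimidyl glutarate, 2 mM, 30 min) and then to DNA (formaldehyde, 1%, 10 min), and fragments of 100 to 400 bp were made. Bowtie, HOMER and mm9 are named, per the submitters' processing notes; how the input was used in calling peaks, and with which settings, is not given in the sources used here. Peak score, focus ratio (a fraction), annotation and distance to the TSS are the authors' deposited values for the 1 ISL1 library. All peaks are 144 bp long. The input library was not analysed here.

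Peaks were taken by the deposited gene name. Host genes came from the annotated transcript, matched for 678 of 685 genic peaks to a RefSeq table of assembly GRCm38.p6, and 1002 of 1003 nearest genes matched by identifier. As builds differ, that table gave names, gene order, strand and the background only. No sequence is shown, since peak sequences need the mm9 genome, which was not used here, and no peak of these genes lay in a promoter. Counts and exact intervals at the 95% level were computed with Python 3.11.15, pandas 2.3.3 and scipy 1.17.1; the search for stretches was tested on simulated positions.

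The genes and lists were chosen with earlier results of these data known. Named genes were the 10, hosts, neighbours, list genes with a peak (at most 4 a list), 3 genes like Camk2d and leaders of at most 5 other stretches; of 11 genes directly beside the genes with a peak, mostly noncoding, none was nearest to a peak, and they are not named. Protein-coding neighbours, Cacna1d and Cacna1g were named after their values were seen. The study's expression measurements were not used here, so no peak is set against a change in RNA.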

Additional observations from a re-analysis of the deposited data

How the results depend on the processing

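Cuts on distance and on score lowered the counts. Within 10 kb of a TSS, 1 of the 10 genes, 1 of the 8 peaks and 1 of the 93 pathway genes were left, where 169 of all 1483 peaks lie (11.4%). At or above the median score these counts were 3, 3 and 5, with 1 peak in the Camk2d and Ank2 stretch; at or above the 75th percentile they were 1, 1 and 2, with 0 in the stretch. Of all peaks, 51.1% and 29.4% pass these cuts. These shares and the 11.4% are of peaks, so they stand beside the peak counts only. The share of all genes left by each of these cuts was not counted. Windows of 100 kb gave 15 stretches of 4 peaks or more in place of 53, and windows of 500 kb gave 73. Limits of 100 kb, counting host genes, a focus ratio at or above the median and leaving out peaks on repeats left the counts of genes and peaks within the limit set for stability (a factor of 1.5), and without repeats the stretch kept 3 peaks. Merging peaks within 1 kb left 4. The median score of the 8 peaks, 13.7, became 21.9 at the 75th percentile, where 1 peak is left and the cut itself sets the value; under the other alternatives it ran from 12.3 to 15.1. No paired analysis was possible because there is 1 ISL1 library. With 7 to 16 tags a peak, if a step is a tag, the counting intervals of the 8 scores overlap.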
